A study of Mus musculus with 14 samples.

Results

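The genes described here are the mouse tau gene, Mapt, and 9 genes that encode tau kinases or the activators of one of them: Cdk5, its activators Cdk5r1 and Cdk5r2, Gsk3a, Gsk3b, Dyrk1a, Fyn, Mark1 and Mark4. They were chosen by name as well-known regulators of tau phosphorylation, when earlier results of these data were known. All 10 were found among the 26570 genes of the basal count table and among the 25933 genes of the learning count table, and all 10 passed the filter on low counts in both. The RNA came from the dorsal hippocampus of male mice of 8 months (strain C57BL6 in the labels, C57BL6/J in the study's methods), and 14 mice gave 1 RNA-seq library each. The basal experiment held untrained mice, 3 WT and 2 THY-Tau22. THY-Tau22 mice, heterozygous per the study's methods, carry a mutated human tau transgene that a Thy1.2 promoter drives in neurons, and keep their own mouse Mapt gene. In the learning experiment, 2 WT VEH mice received saline, 2 TAU VEH mice (THY-Tau22) received CSP, a glucose-derived carbon nanosphere that serves as the carrier, and 2 TAU MOL mice (THY-Tau22) received CSP-TTK21, the carrier with an activator of the CBP/p300 acetyltransferases bound to it. These 3 groups were trained in the Morris water maze, a test of spatial memory, whereas 3 WT VEH_HC mice received saline and stayed in their home cage. Because WT mice received saline and THY-Tau22 mice received CSP, the effects of genotype and of the carrier in the learning experiment cannot be told apart.

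Tau is a neuronal protein that binds microtubules, and its phosphorylation loosens that binding. Proline-directed kinases, among them Cdk5, Gsk3α, Gsk3β and Dyrk1a, phosphorylate the regions beside the microtubule-binding repeats, whereas the MARK kinases, of which Mark1 and Mark4 are members, phosphorylate the repeats themselves, and Fyn phosphorylates tau on tyrosine. Cdk5 is inactive alone and needs p35, the product of Cdk5r1, or p39, the product of Cdk5r2, and Gsk3β can add phosphates beside a site that another kinase, such as Dyrk1a, has already modified. Counts per gene give RNA abundance only, and hold no information on kinase activity, phosphorylation or tau splice forms.

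The genes include 3 pairs of paralogs, and in each pair the sequences differ in base composition, to which the values below are compared. The first 120 coding bases of each are shown, with G and C in capitals, from the GENCODE transcripts of the NCBIM37 (mm9) mouse genome.
Cdk5r1: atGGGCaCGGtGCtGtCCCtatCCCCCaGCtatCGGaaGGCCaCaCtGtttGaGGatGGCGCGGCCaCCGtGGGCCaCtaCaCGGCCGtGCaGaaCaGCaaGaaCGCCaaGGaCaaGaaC
Cdk5r2: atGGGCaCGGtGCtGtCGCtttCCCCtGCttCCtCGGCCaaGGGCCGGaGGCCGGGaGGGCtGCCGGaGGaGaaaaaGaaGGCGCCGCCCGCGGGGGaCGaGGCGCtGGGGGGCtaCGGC
Gsk3b: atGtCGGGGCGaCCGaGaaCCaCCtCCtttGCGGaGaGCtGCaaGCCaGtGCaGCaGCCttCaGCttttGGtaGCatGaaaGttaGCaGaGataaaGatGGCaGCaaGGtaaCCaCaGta
Gsk3a: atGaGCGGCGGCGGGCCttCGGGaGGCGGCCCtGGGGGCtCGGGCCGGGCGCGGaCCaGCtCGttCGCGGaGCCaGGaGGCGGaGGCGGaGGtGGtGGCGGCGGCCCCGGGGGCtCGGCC
Mark1: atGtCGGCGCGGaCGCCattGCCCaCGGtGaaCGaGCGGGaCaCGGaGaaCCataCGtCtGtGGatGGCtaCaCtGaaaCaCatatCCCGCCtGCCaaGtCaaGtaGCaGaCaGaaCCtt
Mark4: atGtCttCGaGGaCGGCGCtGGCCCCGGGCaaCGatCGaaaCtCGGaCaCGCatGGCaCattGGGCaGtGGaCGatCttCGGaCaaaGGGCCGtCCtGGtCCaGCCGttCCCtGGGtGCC
G and C made up 61.7% of this stretch in Cdk5r1 and 73.3% in Cdk5r2, 52.5% in Gsk3b and 82.5% in Gsk3a, and 56.7% in Mark1 and 64.2% in Mark4. Over all annotated exons the GC content was 54.1% in Cdk5r1 and 65.6% in Cdk5r2, 45.2% in Gsk3b and 59.8% in Gsk3a, and 49.6% in Mark1 and 60.7% in Mark4. Cdk5r2 was richer in GC than 99.5% of the 16820 genes tested with the learning libraries, Mark4 than 96.5% and Gsk3a than 95.04%, where the median gene had 50.0%. The other members lay closer to that median, with 53.7% in Mapt, 53.6% in Cdk5, 49.0% in Fyn and 46.0% in Dyrk1a.

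In mm9, Mapt (ENSMUSG00000018411) lies at chr11:104092704-104193404 on the plus strand. Cdk5 (ENSMUSG00000028969) lies at chr5:23924068-23929348 on the minus strand, and its activators are genes of 1 exon on the plus strand, Cdk5r1 (ENSMUSG00000048895) at chr11:80290548-80294681 and Cdk5r2 (ENSMUSG00000090071) at chr1:74901508-74904005. Gsk3a (ENSMUSG00000057177) lies at chr7:26013277-26022870 on the minus strand and Gsk3b (ENSMUSG00000022812) at chr16:38089087-38246170 on the plus strand. Dyrk1a (ENSMUSG00000022897) lies at chr16:94791617-94917124 and Fyn (ENSMUSG00000019843) at chr10:39088661-39285187, both on the plus strand, and Mark1 (ENSMUSG00000026620) at chr1:186720322-186823428 and Mark4 (ENSMUSG00000030397) at chr7:20010816-20043843, both on the minus strand. All 10 genes are protein-coding. The library kit does not keep the strand, and 19.3% of the exon bases of Gsk3a overlap exons of 9130221H12Rik on the opposite strand, so part of the Gsk3a count may belong to that gene. No other member shared an annotated exon base with another gene.

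The study had left out 3 further learning libraries, from mice of 1 litter, after their profiles were seen to differ, so the spread within the learning groups, and the errors built on it, rest on that selection. The libraries held 24693713 to 52180305 counts, and the members 1413 to 42700 counts in a library, so the spread between the few mice, more than depth, limited these values. Thy1, whose promoter drives the transgene, served as a check of the genotype labels. Thy1 CPM (the count of a gene relative to the library total, scaled with TMM factors) were 795 to 874 in WT basal and 1842 to 2352 in THY-Tau22 basal mice, and 786 to 913 in the WT mice and 1805 to 2109 in the THY-Tau22 mice of the learning experiment, with no overlap. The markers of neurons (8 of 8), of CA1 (4 of 4) and of the dentate gyrus (4 of 4) were detected in every library. The libraries differed in how far the counts of a gene depended on its GC content: Spearman's rho between GC content and a gene's deviation from its mean over the libraries was −0.62 and −0.41 in TAU VEH, −0.40 and −0.47 in TAU MOL, 0.08 and 0.28 in WT VEH and 0.41 to 0.45 in WT VEH_HC libraries. In the basal experiment rho was 0.48 in THY-Tau22 replicate 1 and −0.60 in THY-Tau22 replicate 2, and 0.07 to 0.32 in WT, so the pair of THY-Tau22 basal libraries stood at opposite ends. The summed CPM of 14 choroid plexus markers, all detected in every library, was 2188 to 3138 in WT VEH, 159 to 415 in WT VEH_HC, 462 to 543 in TAU VEH and 1070 to 1182 in TAU MOL libraries, and 596 to 713 in WT and 703 to 1992 in THY-Tau22 basal libraries.

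Levels were compared between genes as CPM per kb of annotated exon. Cdk5r2 had the highest mean level of the 10 genes in each of the 6 groups, from 108 CPM per kb (TAU VEH) to 189 CPM per kb (WT VEH), and Dyrk1a the lowest, from 8.37 (WT basal) to 9.52 CPM per kb (TAU VEH). Gsk3a and Mapt followed Cdk5r2, and then Cdk5r1. In WT VEH mice the mean levels were 189 ± 6.54 CPM per kb for Cdk5r2, 123 ± 3.27 for Gsk3a, 94.8 ± 2.88 for Mapt, 87.0 ± 1.88 for Cdk5r1, 54.5 ± 0.710 for Mark4, 39.6 ± 1.69 for Cdk5, 28.1 ± 1.33 for Fyn, 20.5 ± 0.804 for Gsk3b, 12.2 ± 0.876 for Mark1 and 8.42 ± 0.0272 for Dyrk1a (SD, n = 2), and no neighbours in this order overlapped. In TAU VEH mice Mapt, at 99.4 ± 1.14 CPM per kb (SD, n = 2), stood above Gsk3a, at 95.5 ± 0.576 CPM per kb (SD, n = 2), and Mark4 overlapped Cdk5. In TAU MOL mice Gsk3a and Mapt overlapped each other. In the basal groups Mark4 overlapped Fyn, and in THY-Tau22 basal mice Cdk5r2 also overlapped Gsk3a, and Gsk3a overlapped Mapt. Levels in the 2 experiments come from separately scaled tables and were not tested against each other.

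**Figure D1:**
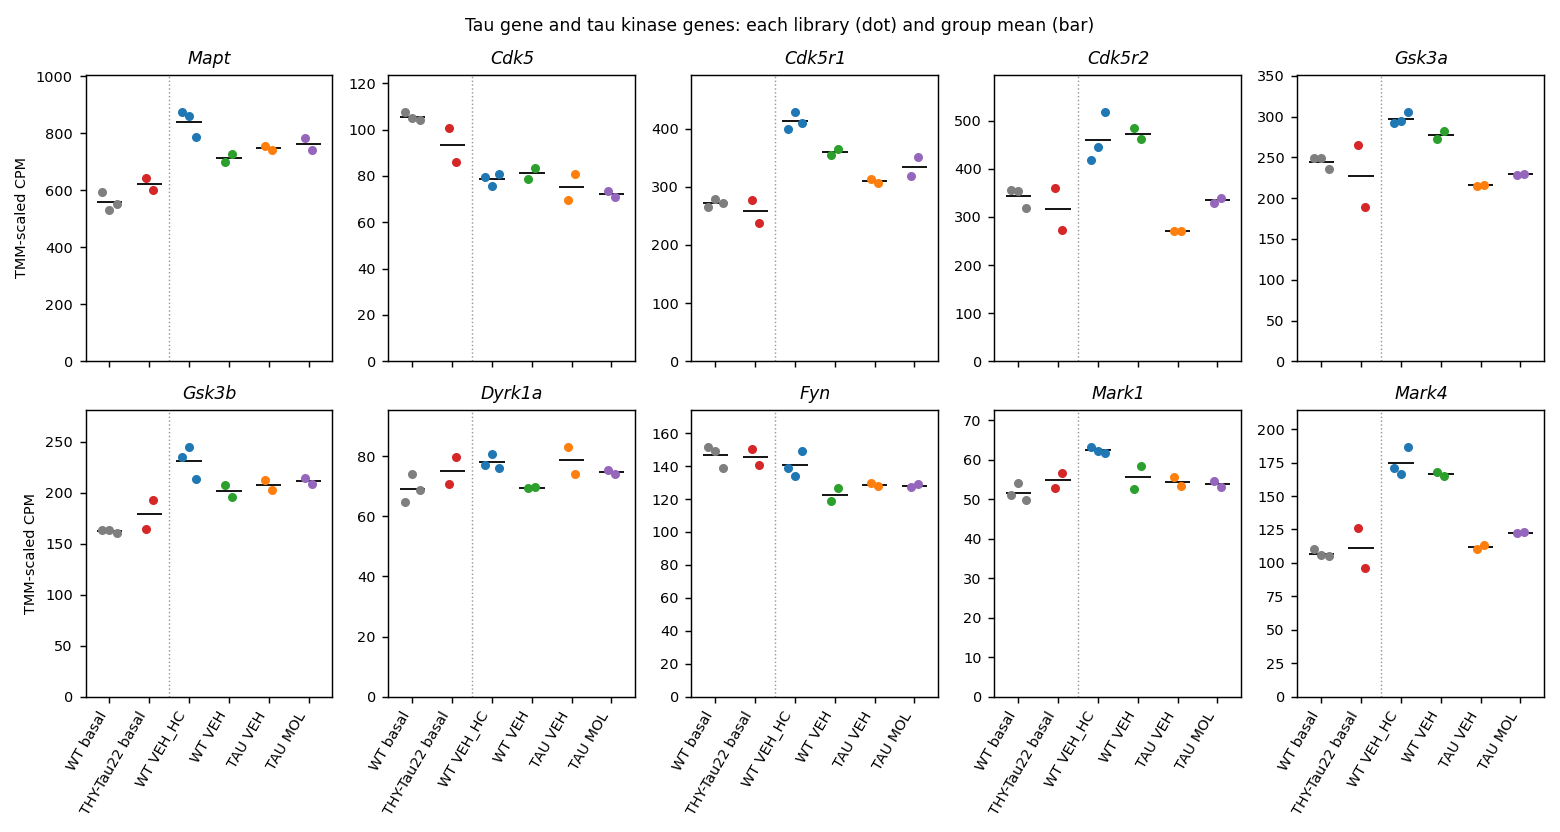
TMM-scaled CPM (y axis, from 0) of each of the 10 genes in every library (dots) by group, with the group mean (bar), where the dotted line separates the basal from the learning experiment. Cdk5r2, Gsk3a and Mark4 libraries of TAU VEH lie below all WT VEH libraries, whereas Mapt of TAU VEH lies at 743 and 755 CPM beside 698 and 729 CPM in WT VEH.

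Untrained THY-Tau22 mice were compared with untrained WT mice to ask what the transgene changes at rest. Mapt CPM were 593, 529.9 and 551 in WT basal mice and 642 and 603 in THY-Tau22 basal mice. Both THY-Tau22 values lay above the highest WT value, but the difference, a log2 fold change of 0.16 (SE 0.12), did not pass the test (quasi-likelihood F test of edgeR, Benjamini-Hochberg adjusted over all genes, adjusted p = 0.90), with a 95% interval from −0.10 to 0.42. The human transgene has no entry of its own in the mouse genome, and reads of human tau that match the mouse sequence could be counted on Mapt, so endogenous and transgenic RNA cannot be told apart in this count.

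None of the other members passed the test either. A gene was called where the adjusted p was under 0.05 and the log2 fold change was above 0.2 in size. By edgeR 0 of 10 members were called, where 0.0245% of the 16324 genes tested were called, and 0 of 10 had an unadjusted p under 0.05, where 4.92% of all genes did. DESeq2 also called 0 members, and 0.245% of all genes. Cdk5 CPM were 108, 105 and 104 in WT and 101 and 85.9 in THY-Tau22 mice, so both THY-Tau22 values lay below all WT values (log2 fold change −0.18, SE 0.11, adjusted p = 0.90). Gsk3b lay higher in both THY-Tau22 mice (165 and 193 CPM) than in WT mice (160.5 to 164 CPM), with a log2 fold change of 0.14 (SE 0.12, adjusted p = 0.91). Both values moved with 1 library, and without THY-Tau22 replicate 1 or 2 the log2 fold change was −0.27 or −0.07 for Cdk5 and 0.27 or 0.02 for Gsk3b, and correcting each library for GC content and length brought Gsk3b to 0.03 and Cdk5 to −0.12.

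The pair of THY-Tau22 basal mice differed from each other more than the groups did in the GC-rich members. Gsk3a CPM were 266 in replicate 1 and 189 in replicate 2, beside 236 to 249 in WT mice. Mark4 CPM were 126 and 96.1, beside 105 to 110.2 in WT mice, and Cdk5r2 CPM were 359 and 274, beside 319 to 356. In each of these 3 genes replicate 1 lay above and replicate 2 below every WT library. Without replicate 2 the log2 fold changes of Gsk3a, Cdk5r2 and Cdk5r1 were above 0 (0.12, 0.07 and 0.03), whereas with both they were below 0 (−0.10, −0.11 and −0.08). The 95% intervals of the 10 members ran from −0.43 at the lowest to 0.42 at the highest. Summed CPM of some cell type markers also differed between untrained groups with no overlap. For astrocytes it was 1547 to 1662 in WT and 1841 to 2160 in THY-Tau22 libraries, and for microglia 323 to 341 and 371 to 388. For oligodendrocytes it was 7583 to 12500 and 7055 to 7341. The part of these markers in the values of the members was not tested.

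Trained WT VEH mice were compared with WT VEH_HC mice to ask what training changes in the members. Mapt was the one member called, and its RNA fell. Mapt CPM were 875, 859.995 and 786 in WT VEH_HC and 698 and 729 in WT VEH mice. All trained mice lay below all home cage mice. The log2 fold change was −0.24 (SE 0.065, 95% interval −0.38 to −0.09, edgeR's adjusted p = 0.046), so the level fell by 15.1%. In this comparison 8.40% of the 16820 genes tested were called, 3.05% of them as lower, so 1 member of 10 is close to that background.

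The call for Mapt was not stable, and 6 of 15 alternative settings gave it. Leaving out WT VEH replicate 1 or 2 gave log2 fold changes of −0.21 and −0.27, with 1 WT VEH library left. Leaving out WT VEH_HC replicate 1 or 2 gave −0.21 and −0.22 (edgeR's adjusted p = 0.10 and 0.092), in fits that called 3.67% and 5.70% of all genes. Without WT VEH_HC replicate 3 it was −0.28 and was called (edgeR's adjusted p = 0.012, 16.7% of all genes called). DESeq2 (adjusted p = 0.0087) and edgeR with the replicate block (adjusted p = 0.015) also called it. With a correction of each library for GC content and gene length, the log2 fold change of Mapt was −0.10 (SE 0.058, adjusted p = 0.32), 0 of 10 members and 4.56% of all genes were called, and 4 members and 23.5% of all genes had an unadjusted p under 0.05. With the choroid plexus score as a covariate, 0 of 10 members were called, 0 of all genes were called, and the value of Mapt turned to 0.11. The summed CPM of the 4 dentate gyrus markers was 420 to 581 in WT VEH_HC and 368 to 389 in WT VEH libraries, and that of the 4 neocortex markers 122 to 130 and 118 to 121, and that of the 5 blood markers 22.5 to 28.5 and 32.4 to 36.9, all with no overlap. The part of these markers, of the choroid plexus RNA and of the GC dependence of the libraries in this fall was not tested further.

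Of the other 9 members, 5 had an unadjusted p under 0.05 and lower levels after training, and did not pass the adjustment, where 27.8% of all genes had an unadjusted p under 0.05. Cdk5r1, which encodes p35, had 400.0, 429 and 409 CPM in WT VEH_HC and 354 and 365 CPM in WT VEH mice, with a log2 fold change of −0.20 (SE 0.063, adjusted p = 0.069). Fyn, the tyrosine kinase, had 139, 134 and 149 CPM in WT VEH_HC and 119 and 127 CPM in WT VEH mice, with a log2 fold change of −0.20 (SE 0.064, adjusted p = 0.074). DESeq2 gave both an adjusted p under 0.05 (0.035 and 0.0496), and both missed the fold limit there. The log2 fold changes were −0.20 for Gsk3b (adjusted p = 0.092), −0.17 for Mark1 (adjusted p = 0.12) and −0.16 for Dyrk1a (adjusted p = 0.14). In all of these the trained and home cage mice did not overlap. Here and elsewhere the share of all genes without overlap was not counted, so a lack of overlap is a description and not a test. The median log2 fold change over the 10 members was −0.17, where that over all genes was −0.0028. Cdk5, the catalytic subunit, had 75.7 to 80.9 CPM in WT VEH_HC and 78.7 and 83.6 CPM in WT VEH mice, and Cdk5r2 419 to 518 and 484 and 461 CPM, so both overlapped.

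TAU VEH mice were compared with WT VEH mice, both trained, to ask how the members differ with the transgene after learning. In this comparison 3 of 10 members were called, all lower in TAU VEH: Cdk5r2, Mark4 and Gsk3a. Of all genes tested, 14.4% were called and 10.8% were called as lower. With edgeR 5 members and 27.1% of all genes had an unadjusted p under 0.05, and DESeq2 also called 3 members, and 14.8% of all genes.

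Cdk5r2, which encodes the Cdk5 activator p39, had 484 and 461 CPM in WT VEH and 269.8 and 270.3 CPM in TAU VEH mice. The groups lay far apart and each pair of mice close together. Its log2 fold change was −0.81 (SE 0.090, 95% interval −1.005 to −0.61, adjusted p = 0.00099), so the level fell by 42.9%, the widest difference of the 10 members in any of the 5 comparisons. Mark4, a kinase of the microtubule-binding repeats, had 168 and 165 CPM in WT VEH and 110.2 and 114 CPM in TAU VEH mice. Its log2 fold change was −0.57 (SE 0.069, 95% interval −0.72 to −0.42, adjusted p = 0.0010), so the level fell by 32.7%. Gsk3a had 272 and 283 CPM in WT VEH and 215 and 217 CPM in TAU VEH mice, which again did not overlap. Its log2 fold change was −0.36 (SE 0.061, 95% interval −0.49 to −0.23, adjusted p = 0.0025), so the level fell by 22.2%, with the doubt over its overlapping neighbour given above. In bulk tissue, fewer cells of a type and less RNA per cell cannot be told apart.

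The transgenic mice did not differ detectably in Mapt. TAU VEH mice had 755 and 743 CPM and WT VEH mice 698 and 729 CPM, which did not overlap, with a log2 fold change of 0.07 (SE 0.070, 95% interval −0.08 to 0.22, adjusted p = 0.59). Cdk5r1 was lower in both TAU VEH mice, at 314 and 307 CPM beside 354 and 365 CPM, and did not pass the adjustment (log2 fold change −0.21, SE 0.068, adjusted p = 0.061). It was called in a fit of only these groups (adjusted p = 0.025), whereas its log2 fold change was −0.08 (adjusted p = 0.60) with the correction for GC content and length and −0.07 (adjusted p = 0.52) with library size alone. Dyrk1a lay higher in both TAU VEH mice, at 83.0 and 74.2 CPM beside 69.4 and 69.7 CPM, with a log2 fold change of 0.18 (SE 0.072, adjusted p = 0.14). Gsk3b (0.04, SE 0.075), Fyn (0.07, SE 0.070), Mark1 (−0.03, SE 0.071) and Cdk5 (−0.11, SE 0.082) had log2 fold changes with intervals that included 0.

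**Figure D2:**
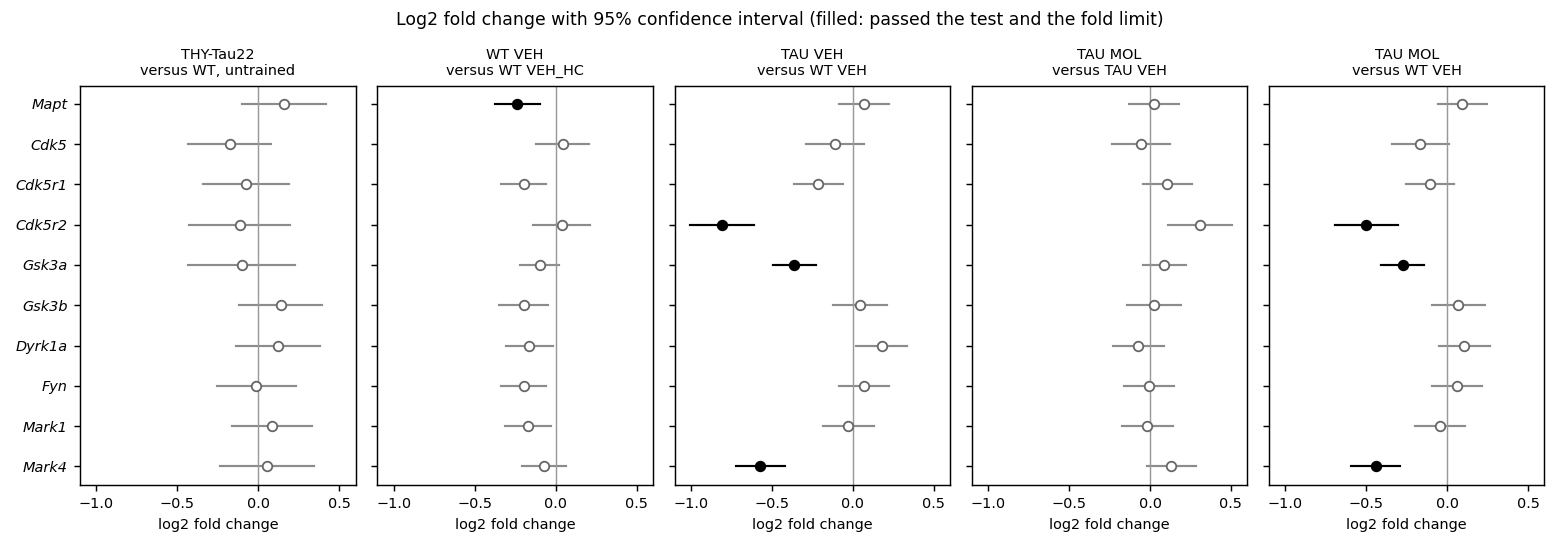
Log2 fold change (x axis) of each member in the 5 comparisons, with its 95% confidence interval (line), where filled points passed the test and the limit on the fold change. The filled points are Mapt in WT VEH versus WT VEH_HC, and Cdk5r2, Gsk3a and Mark4 in TAU VEH and in TAU MOL versus WT VEH, which share the WT VEH mice.

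In each of the 3 paralog pairs printed above, the GC-rich gene was called lower and its partner was not called. The ratio of the counts of both genes within a library does not depend on the scaling, but it keeps the GC dependence of that library. For Cdk5r2 to Cdk5r1 it was 1.37 and 1.26 in WT VEH libraries, 0.860 and 0.881 in those of TAU VEH, and 1.03 and 0.970 in those of TAU MOL. For Mark4 to Mark1 it was 3.18 and 2.82 in WT VEH libraries, 1.98 and 2.13 in those of TAU VEH, and 2.24 and 2.31 in those of TAU MOL. For Gsk3a to Gsk3b it was 1.31 and 1.44 in WT VEH libraries, 1.01 and 1.07 in those of TAU VEH, and 1.07 and 1.10 in those of TAU MOL. In all 3 pairs both THY-Tau22 groups lay below WT VEH with no overlap. The 3 WT VEH_HC libraries, which were not trained, had Cdk5r2 to Cdk5r1 ratios of 1.05, 1.04 and 1.27 and Gsk3a to Gsk3b ratios of 1.24, 1.201 and 1.43, between those of WT VEH and TAU VEH or within WT VEH. In the basal experiment the Gsk3a to Gsk3b ratio was 1.61 in THY-Tau22 replicate 1 and 0.979 in replicate 2, beside 1.47 to 1.52 in WT libraries. The Cdk5r2 to Cdk5r1 ratio was 1.30 and 1.147 in these THY-Tau22 libraries, beside 1.17 to 1.35 in WT, and the Mark4 to Mark1 ratio 2.38 and 1.70, beside 1.95 to 2.16.

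**Figure D3:**
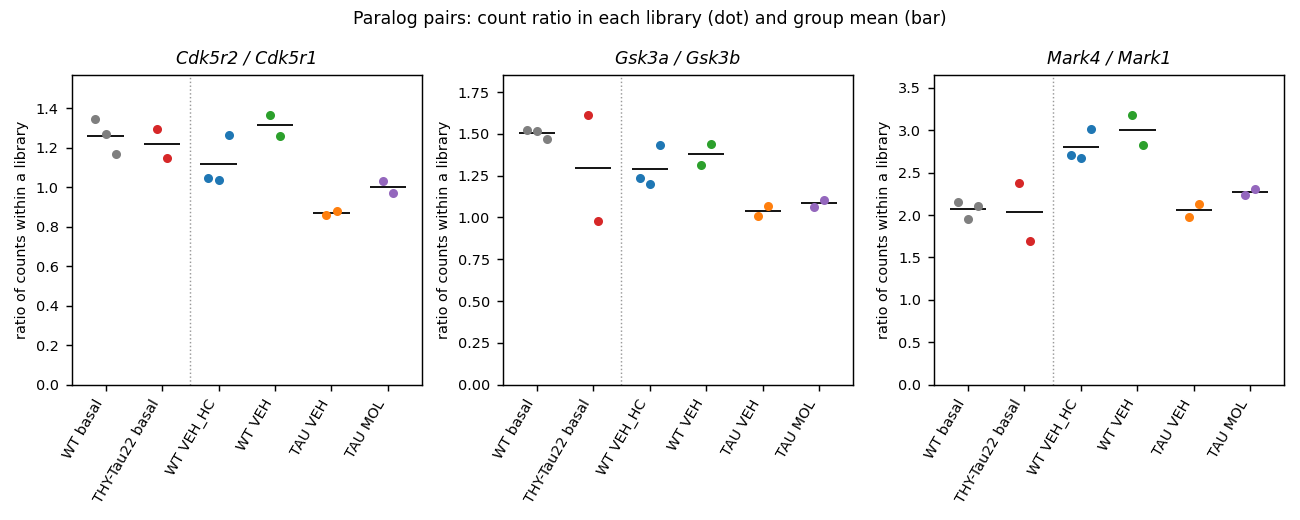
Ratio of the raw counts of the GC-rich to the other paralog within each library (dots, y axis from 0) by group, with the group mean (bar), where the dotted line separates the experiments. TAU VEH and TAU MOL lie below WT VEH in all 3 pairs, and the 2 THY-Tau22 basal libraries lie on either side of the WT basal libraries for Gsk3a to Gsk3b and Mark4 to Mark1.

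In TAU VEH versus WT VEH the changes of the members followed their GC content. Across the 10 genes, which share the same 4 libraries, Spearman's rho between GC content and log2 fold change was −0.87 in that comparison and −0.52 after the correction for GC content and length, a description and not a test. In TAU MOL versus WT VEH it was −0.83 and −0.59, and in untrained mice −0.53 and −0.10. After training of WT mice it was 0.39 and was 0.83 with the correction, so there the correction did not lower it. In TAU VEH versus WT VEH with the correction, Cdk5r2 alone was still called (log2 fold change −0.36, SE 0.073, adjusted p = 0.027), whereas Mark4 (−0.21, SE 0.070, adjusted p = 0.14) and Gsk3a (−0.07, SE 0.058, adjusted p = 0.61) were not, and 2.64% of all genes were called. Mapt, with a GC content near the middle, then had a log2 fold change of 0.19 (SE 0.063, adjusted p = 0.15). The loess correction also removes any true change that follows GC content, and the part of the GC dependence of the libraries in the fall of these genes was not tested.

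**Figure D4:**
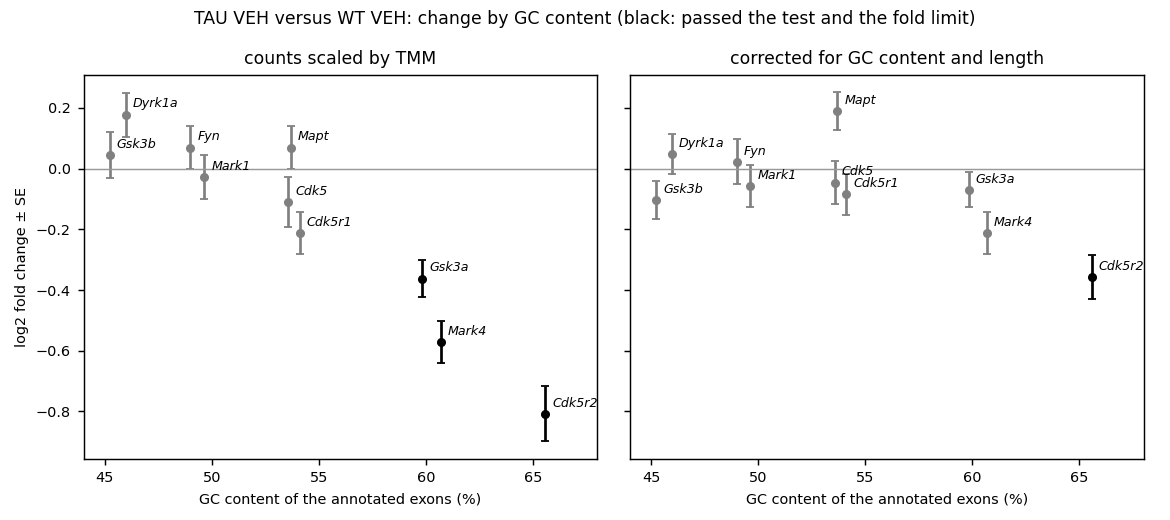
Log2 fold change with its SE (y axis) in TAU VEH versus WT VEH against the GC content of the annotated exons (x axis, %) of the 10 genes, with TMM scaling (left) and with the correction for GC content and length (right), where black points passed the test and the fold limit. On the left Gsk3a, Mark4 and Cdk5r2 fall with rising GC content to −0.36, −0.57 and −0.81, and on the right they lie at −0.07, −0.21 and −0.36.

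Other values moved with the same groups. The summed CPM of the 8 neuron markers was 8981 to 9638 in WT VEH, 7946 to 8007 in TAU VEH and 7398 to 7771 in TAU MOL libraries, and that of the 4 CA1 markers 974 to 1046, 571 to 605 and 830 to 836. The 5 astrocyte markers summed to 1215 to 1303 in WT VEH and 1545 to 1678 in TAU VEH libraries, with 1461 to 1671 in TAU MOL. The 4 endothelial markers summed to 122 to 129.7 and 97.6 to 106, with 88.7 to 106 in TAU MOL. The 4 neocortex markers summed to 118 to 121 and 87.0 to 102, with 110 to 116 in TAU MOL, and the choroid plexus markers are given above. No listed marker was at 0 in any library, and the part of these differences in the fall of Cdk5r2, Mark4 and Gsk3a was not tested. With the choroid plexus score as a covariate 0 of 10 members were called (3 members and 14.5% of all genes had an unadjusted p under 0.05), as were 0 of all 16820 genes. With it the log2 fold changes were −0.40 for Cdk5r2 (SE 0.15), −0.32 for Mark4 (SE 0.13) and −0.30 for Gsk3a (SE 0.13), with adjusted p from 0.32 to 0.34. The summed CPM of the choroid plexus markers does not overlap between WT VEH and TAU VEH, so this fit cannot separate the score from the groups. Scaling by library size alone moved the median of all genes to 0.15 on the log2 scale, called 2578 genes higher and 1020 lower in place of 608 and 1815, and called 5 members, Dyrk1a (0.32) and Fyn (0.22) as higher beside the same 3 as lower.

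TAU MOL mice were compared with TAU VEH mice to ask whether CSP-TTK21 changes the members in trained THY-Tau22 mice. Under edgeR 0 of 10 members and 0% of all genes were called, 1 member and 6.33% of all genes had an unadjusted p under 0.05, and DESeq2 called 0 members and 52 genes. That member was Cdk5r2, with 329 and 339.8 CPM in TAU MOL and 269.8 and 270.3 CPM in TAU VEH mice. Both treated mice lay above both mice given the carrier. The log2 fold change was 0.31 (SE 0.090, 95% interval 0.11 to 0.50, unadjusted p = 0.0053, adjusted p = 0.46), and it was called (adjusted p = 0.025) only where the fit had no filter on low counts. Correcting for GC content and length brought the log2 fold change to 0.16, where no member had an unadjusted p under 0.05, and 0.10 (SE 0.096, unadjusted p = 0.32, adjusted p = 0.81) with the choroid plexus covariate.

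Mapt did not differ detectably with treatment, at 783 and 740.02 CPM in TAU MOL and 755 and 743 CPM in TAU VEH mice (log2 fold change 0.02, SE 0.070, 95% interval −0.13 to 0.18). Mark4 had 122 and 123 CPM in TAU MOL and 110.2 and 114 CPM in TAU VEH mice, with no overlap (log2 fold change 0.13, SE 0.069, 95% interval −0.02 to 0.28). Gsk3a had 229 and 229.8 CPM beside 215 and 217 CPM, and Cdk5r1 319 and 350.4 CPM beside 314 and 307 CPM, also with no overlap and with intervals that included 0. Cdk5, Gsk3b, Dyrk1a, Fyn and Mark1 overlapped between both groups. The changes followed GC content in the other direction here (Spearman's rho 0.76, and 0.43 with the correction, across the 10 genes, which share 4 libraries).

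Beside WT VEH mice, the treated mice had the same 3 genes called as lower, where 5.63% of all genes were called and 5.02% as lower. This comparison shares its WT VEH mice with the one above, and is given beside it for that reason. Cdk5r2 had a log2 fold change of −0.50 (SE 0.090, adjusted p = 0.012) in TAU MOL and −0.81 in TAU VEH mice, Mark4 −0.44 (SE 0.069, adjusted p = 0.0100) and −0.57, and Gsk3a −0.28 (SE 0.060, adjusted p = 0.024) and −0.36. The difference between the TAU MOL and TAU VEH values is the test of treatment given above. Leaving out any 1 of the 4 WT VEH and TAU MOL libraries ended all 3 calls, with adjusted p from 0.067 to 0.18. The log2 fold changes were then −0.54 to −0.45 for Cdk5r2, −0.45 to −0.42 for Mark4 and −0.29 to −0.25 for Gsk3a, and the calls over all genes fell from 947 to between 2 and 4 (0.0116% to 0.0231%). The correction for GC content and length also ended all 3 calls, at log2 fold changes of −0.20 for Cdk5r2, −0.21 for Mark4 and −0.08 for Gsk3a. With it 0 members were called and 3 (Mark4, Cdk5r2 and Mapt) had an unadjusted p under 0.05, beside 0.184% and 11.9% of all genes. Scaling by library size alone ended the call of Gsk3a (log2 fold change −0.15, adjusted p = 0.12) and left 2 members called. The 3 calls of TAU VEH versus WT VEH held without any 1 of their 4 libraries, with adjusted p from 0.0068 to 0.036, in fits that still called 5.29% to 7.36% of all genes. The other 7 members were not called, and Mapt had a log2 fold change of 0.09 (SE 0.070, 95% interval −0.06 to 0.25).

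Mapt and its kinases did not vary as 1 block over the 14 libraries. The log2 CPM of each gene was centred within each experiment, and Pearson's r with Mapt was 0.69 for Gsk3b, 0.64 for Mark1, 0.54 for Fyn, 0.40 for Cdk5r1, 0.36 for Dyrk1a, 0.33 for Mark4, 0.29 for Gsk3a, 0.11 for Cdk5r2 and −0.16 for Cdk5. Of the 11184 genes compared, 397 were more like Mapt than Gsk3b was. The 5 genes most like Mapt were Synrg (r = 0.94), Tmco7 (r = 0.93), Gramd1b (r = 0.92), Srgap3 (r = 0.91) and Mars (r = 0.90). These values describe libraries that share groups, depth and GC dependence, and the 5 genes have a GC content of 48.6% to 54.0%, as Mapt has 53.7%.

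The wider tau pathway was read from 5 lists of genes, whose counts are to be read against the shares of all genes called, 14.4% in TAU VEH versus WT VEH, 5.63% in TAU MOL versus WT VEH and 8.40% after training of WT mice. In TAU VEH versus WT VEH, 42 of 43 listed other tau kinases were tested, and 3 were higher and 8 lower, the median log2 fold change of the list being 0.02 where that of all genes was 0.0041. Camk2a, the calcium-dependent kinase of the postsynapse, fell from 10330 to 7065 CPM (log2 fold change −0.55, SE 0.085, adjusted p = 0.0019), Ttbk1, a neuronal tau-tubulin kinase, by 0.58 on the log2 scale (adjusted p = 0.0022) and Brsk1, a kinase of neuronal polarity, by 0.48 (adjusted p = 0.0019). The 8 lower genes had a median GC content of 57.5% and the 3 higher ones 44%. Of 24 tau phosphatase genes, 2 were lower and 0 higher, Ptpa, the activator of phosphatase PP2A (log2 fold change −0.54, adjusted p = 0.0012), and Ppp2r5b, a PP2A regulatory subunit (−0.24, adjusted p = 0.029). Of 14 kinase regulators, 2 were lower, among them Capn1, the calpain that cleaves p35 (−0.29, adjusted p = 0.036), and the other was Stk11 (−0.22, adjusted p = 0.041).

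Of 20 genes of other microtubule proteins, 2 were higher and 5 lower in TAU VEH, among them Map1a, a microtubule-associated protein of dendrites (log2 fold change −0.57, adjusted p = 0.0012), Map1s (−0.54, adjusted p = 0.0023) and Mapre3, a plus-end binding protein (−0.43, adjusted p = 0.0018). Of 20 genes that handle tau protein, 2 were higher and 1 lower. Ogt and Oga, the enzymes that add and remove O-GlcNAc, a sugar mark that shares sites with phosphate on tau, had log2 fold changes of 0.34 (adjusted p = 0.032) and 0.26 (adjusted p = 0.017), and Bag3, a co-chaperone, of −0.43 (adjusted p = 0.015). The correction for GC content and length left 2.64% of all genes called. Of the other tau kinases 1 was still called, Camk2a (−0.47, adjusted p = 0.025). So were 1 phosphatase gene, Ptpa (−0.31, adjusted p = 0.032), and 2 microtubule genes, Map1a (−0.40, adjusted p = 0.044) and Mapre3 (−0.30, adjusted p = 0.045). The kinase regulators and the tau handling genes had 0. DESeq2 without that correction called 11, 2, 7, 1 and 3 genes of these lists in this order, and 14.8% of all genes. The correction turned the direction of Ppp2r5b (0.05, adjusted p = 0.74) and Stk11 (0.13, adjusted p = 0.31), and brought Capn1 to −0.04 (adjusted p = 0.85) and Map1s to −0.08 (adjusted p = 0.63).

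In TAU MOL versus WT VEH, 1 of the other tau kinases was higher, Camk2d (log2 fold change 0.40, adjusted p = 0.035), and 7 were lower, among them Camk2a (−0.50, adjusted p = 0.010) and Ttbk1 (−0.45, adjusted p = 0.019). Ptpa was the 1 phosphatase gene called (−0.44, adjusted p = 0.010), and 4 microtubule genes were lower, among them Map1a (−0.49, adjusted p = 0.0100), Stmn3, a stathmin (−0.47, adjusted p = 0.019), and Map1s (−0.44, adjusted p = 0.018). Of the kinase regulators and the tau handling genes edgeR called 0, with 2 and 4 genes at an unadjusted p under 0.05 beside 19.8% of all genes, and DESeq2 called 0 and 1. With the correction for GC content and length 0 genes of the 5 lists were called, beside 0.184% of all genes. The log2 fold changes were then −0.47 for Camk2a, −0.18 for Ttbk1, 0.20 for Camk2d and −0.30 for Ptpa. Those of the microtubule genes were −0.39 for Map1a, −0.32 for Stmn3 and −0.13 for Map1s. In TAU MOL versus TAU VEH and in THY-Tau22 versus WT, untrained, edgeR and DESeq2 both called 0 genes of each of the 5 lists. At an unadjusted p under 0.05 the former comparison had 5 kinases, 0 phosphatases, 1 kinase regulator, 3 microtubule and 2 tau handling genes, beside 6.33% of all genes, and the latter 0, 0, 1, 1 and 1, beside 4.92% of all genes.

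After training of WT mice, 2 of the other tau kinases were higher and 4 lower. Sgk1, a kinase of the glucocorticoid and stress response, rose from 52.5 to 105 CPM (log2 fold change 0.996, SE 0.18, adjusted p = 0.013), a wider change than that of any member, whereas Mapk11, a p38 kinase (log2 fold change −0.49, adjusted p = 0.032), and Dyrk1b, a paralog of Dyrk1a (−0.34, adjusted p = 0.038), fell. Of the kinase regulators, Cables1, a partner of Cdk5, was higher (0.41, adjusted p = 0.017), and 3 were lower, among them Frat1, a binding partner of Gsk3 (−0.53, adjusted p = 0.043), and Capn1 (−0.28, adjusted p = 0.041). Of the phosphatases Ppp1cb, a catalytic subunit of PP1, was higher (0.32, adjusted p = 0.026). Of the tau handling genes 4 were higher, among them the chaperone genes Dnajb1 (0.45, adjusted p = 0.0058) and Hsp90aa1 (0.36, adjusted p = 0.028), and Picalm, a clathrin adaptor gene (0.28, adjusted p = 0.034). Of the microtubule genes edgeR called 0 (7 of 20 had an unadjusted p under 0.05, beside 27.8% of all genes) and DESeq2 called 2. With the correction for GC content and length 3 of the other tau kinases, 1 kinase regulator and 3 tau handling genes were called, beside 4.56% of all genes. Among them were Sgk1 (1.03, adjusted p = 0.0094), Cables1 (0.49, adjusted p = 0.0040) and Dnajb1 (0.51, adjusted p = 0.0022). Of the phosphatase and the microtubule genes 0 were called, and Ppp1cb was at 0.15 (adjusted p = 0.16).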

How the data were processed

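RNA-seq was measured in 14 libraries, 1 per mouse, of 6 groups taken from the sample titles, where the trained THY-Tau22 libraries marked C and T were read as CSP (TAU VEH) and CSP-TTK21 (TAU MOL). From poly-A RNA the authors prepared libraries with a kit that keeps no strand, aligned single-end reads to mm9 with TopHat2 2.0.10 and Bowtie2 2.1.0, and counted reads on Ensembl genes with HTSeq 0.5.4p3. They deposited these raw counts, which were used for all values, and a normalized signal, in which each library has been divided by its own factor, which was not used. The 138 lines of the learning table without values were left out, and 0 columns had no sample.

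Both tables were fitted apart with edgeR 4.0.16 (R 4.3.3): filterByExpr, TMM factors, quasi-likelihood F test and Benjamini-Hochberg adjustment over all genes tested. The 9 learning libraries shared 1 fit. A gene was called at an adjusted p under 0.05 and a log2 fold change above 0.2 in size. CPM carry TMM scaling, and intervals of fold changes are 95% intervals of the fit. Alternatives were DESeq2 1.42.0 (the authors used an earlier version), DESeq2 size factors, library size alone, no filter, a mean of at least 10 counts, the replicate number in the design, a fit of only the groups compared, a loess correction of each library for GC content and exon length (span 0.3), the mean log2 CPM of the choroid plexus markers as a covariate, no limit on the fold change, and leaving out each library. The tests were tested on simulated data with 200 changed genes.

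The 10 genes were taken by name, and the members, the 5 pathway lists and the marker lists were chosen with earlier results of these data known. From each pathway list up to 3 called genes with the largest log2 fold change in size were named per comparison. The tables list Map1a, Map1s, Oga and Ptpa under the older symbols Mtap1a, Mtap1s, Mgea5 and Ppp2r4. The genes most like Mapt are the 5 with the highest Pearson's r among genes of a mean of at least 5 CPM. Positions, GC content, exon lengths and coding sequences came from the NCBIM37 genome with its GENCODE annotation. The mice of other cohorts, the ChIP-seq data and 3 further learning libraries, which the study left out after seeing their profiles vary, were not analysed here. The figures were drawn with matplotlib 3.10.9.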

Additional observations from a re-analysis of the deposited data

How the results depend on the processing

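The counts of members called were 0, 1, 3, 0 and 3 in THY-Tau22 versus WT, untrained, WT VEH versus WT VEH_HC, TAU VEH versus WT VEH, TAU MOL versus TAU VEH and TAU MOL versus WT VEH. Percentages are the share of all genes called by the same fit. In WT VEH versus WT VEH_HC the count was 0 with library size alone (10.2%), with the GC and length correction (4.56%), with the choroid plexus covariate (0%) and with only the groups compared (1.89%). With the correction and the replicate block it was 1 (9.85%), and that member was Cdk5r2, as higher (log2 fold change 0.20, edgeR's adjusted p = 0.047), and not Mapt. In TAU VEH versus WT VEH it was 5 with library size alone (21.4%), 1 with the GC and length correction (2.64%, and 4.28% with the replicate block), 0 with the covariate (0%) and 4 with only the groups compared (21.0%). In TAU MOL versus WT VEH it was 2 with library size alone (6.44%), 0 with the correction (0.184%, and 0.904% with the block) and 0 with the covariate (0.0119%), and in TAU MOL versus TAU VEH it was 1 with no filter on low counts (0.898%). Leaving out WT VEH_HC replicate 1, 2 or 3 gave 0, 0 and 2 members in WT VEH versus WT VEH_HC (3.67%, 5.70% and 16.7%). In the learning experiment, leaving out any other library leaves 1 in its group, and a lone library of a group is assumed to vary like the other groups. Same-numbered libraries did not deviate together throughout (correlations of deviations from −0.16 to 0.24). These deviations are from the group mean, so those of a group of 2 mice mirror each other. The check therefore cannot decide whether the numbers pair the mice. With the replicate block the counts were 0, 3, 4, 0 and 3 (Cdk5r1, adjusted p = 0.048, and Gsk3b, adjusted p = 0.020, joined after training, and Cdk5r1, adjusted p = 0.044, in TAU VEH versus WT VEH), in fits that called 0.227%, 17.8%, 16.6%, 0% and 7.85% of all genes. The spread between 2 or 3 mice, more than depth, limits all these values, and the cause of the changes was not tested beyond these settings.

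Some values of single genes, mostly near 0, changed sign. With the GC and length correction, the log2 fold changes were 0.01 for Mark4 after training, −0.10 for Gsk3b in TAU VEH versus WT VEH, −0.04 and −0.01 for Mapt and Gsk3a in TAU MOL versus TAU VEH, and −0.06 and −0.01 for Gsk3b and Dyrk1a in TAU MOL versus WT VEH. With the replicate block added they were 0.06, −0.10, −0.04, −0.01, −0.06 and −0.01, and Gsk3b in untrained mice was −0.01. With the choroid plexus covariate Cdk5r1, Cdk5r2, Gsk3a and Fyn were 0.04, 0.06, 0.13 and 0.02 in untrained mice, and Mapt, Cdk5, Cdk5r2, Gsk3b and Dyrk1a were 0.11, −0.14, −0.56, 0.15 and 0.04 after training. With the same covariate Mapt, Cdk5 and Gsk3b were −0.17, 0.01 and −0.20 in TAU VEH versus WT VEH, Mark1 was 0.04 in TAU MOL versus TAU VEH, and Mapt and Gsk3b were −0.02 and −0.05 in TAU MOL versus WT VEH. The summed CPM of the choroid plexus markers does not overlap between the learning groups, so these fits cannot separate the score from the groups. The SE of the values after training ran from 0.19 (Mapt) to 0.25 (Cdk5). With library size alone, which moved the median of all genes by 0.15 in TAU VEH and 0.12 in TAU MOL versus WT VEH, Fyn was 0.01 in untrained mice, Cdk5 and Mark1 were 0.04 and 0.12 in TAU VEH versus WT VEH, Mapt and Gsk3b were −0.002 and −0.001 in TAU MOL versus TAU VEH, and Cdk5r1 and Mark1 were 0.02 and 0.08 in TAU MOL versus WT VEH. Leaving out each library gave ranges in untrained mice of −0.17 to 0.03 for Cdk5r1, −0.30 to 0.07 for Cdk5r2, −0.35 to 0.12 for Gsk3a, −0.05 to 0.03 for Fyn and −0.13 to 0.23 for Mark4, and after training of −0.03 to 0.13 for Cdk5r2. Mark1 ranged from −0.09 to 0.05 in TAU VEH and from −0.10 to 0.03 in TAU MOL versus WT VEH. In TAU MOL versus TAU VEH the ranges were −0.02 to 0.07 for Mapt, −0.16 to 0.06 for Cdk5, −0.01 to 0.06 for Gsk3b, −0.15 to 0.01 for Dyrk1a, −0.02 to 0.01 for Fyn and −0.04 to 0.02 for Mark1. Of the single-gene values under these settings, 610 kept their direction and their side of the threshold, 37 lost significance, 9 gained it and 54 changed sign.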
